A study of Mus musculus with 12 samples.

Results

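Expression of 7 genes of alternative macrophage activation and the interleukin-4 (IL-4) axis was examined in cardiac macrophages (Mφ). The genes were the receptor chain Il4ra, the transcription factors Stat6 and Irf4, and the effector genes Retnla, Mgl2, Clec10a and Pdcd1lg2. They were taken by gene symbol and are 7 of the 24445 symbols counted in each library. All 7 had enough counts to be tested. The p-values measure the spread between single mice. The Mφ came from C57BL6/J mice, adult males by the methods of the study, and each of the 12 libraries held the RNA of 1 mouse. Control mice (Ct, n = 4) carried a saline pump, and for how long was not given for each mouse in the sources used here. Isoproterenol, a β-adrenergic agonist, was infused at 30 mg/kg/day for 14 days in the early concentric hypertrophy group (ECH, n = 4) and for 28 days in the heart failure group (HF, n = 4). No allele, transgene or further agent is given for any group. The cells of all groups were leukocytes enriched with anti-CD45 beads, gated on CD11b and sorted as CD14+/CD64+, a gate that can hold resident Mφ, Mφ derived from monocytes and monocytes. In such bulk RNA, fewer cells that express a gene and less RNA of it per cell cannot be told apart.

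IL-4 and the related cytokine IL-13 act on Mφ through receptors that share the IL-4Rα chain encoded by Il4ra. Janus kinases bound to the receptor phosphorylate STAT6, which enters the nucleus and binds DNA at the palindrome TTCNNNNGAA. STAT6 and the factors that follow it, such as IRF4, turn on a set of genes by which alternatively activated Mφ are recognized in the mouse, among them the secreted protein RELMα (Retnla), the galactose-type lectins CD301b (Mgl2) and CD301a (Clec10a), and PD-L2 (Pdcd1lg2), a ligand of the inhibitory receptor PD-1. In the heart, Mφ that carry markers of this program are associated with tissue repair and with fibrosis.

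Library totals lay between 88466559 and 111180291 counts. Between 13600 and 15940 genes were detected, and HF library 1 and Ct library 2 lacked any count of 188 and 127 genes that had at least 100 counts in each other library of their group, against at most 7 genes in the other libraries. The library numbers in the labels allow 2 sets to be inferred, with ECH mice 1 and 2 beside Ct and ECH mice 3 and 4 beside HF, although no source states that these sets were handled apart. The sample titles also give ECH mice 3 and 4 a code in common that ECH mice 1 and 2 lack, no source says what it stands for, and among the ECH mice it cannot be told apart from the inferred set. Codes of this kind are also shared by Ct mice 1 and 2, by Ct mice 3 and 4 and by HF mice 1 and 2. They part the Ct mice, which the inferred sets do not. Summed Mφ identity markers were at 8095 to 10842 CPM (counts scaled to a common library size with edgeR's TMM method) in Ct, 9549 to 11586 in ECH and 9722 to 10607 in HF. This list includes genes of the proteins that the cells were enriched and sorted on, so the sums do not test the label of the cells. Monocyte markers summed to 291 to 589 CPM in Ct, 508 to 687 in ECH and 539 to 903 in HF. B and plasma cell markers summed to 99.2 to 456 CPM in Ct, 43.2 to 89.2 in ECH and 63.0 to 88.0 in HF, and neutrophil markers to 346 to 1634, 191 to 527 and 131 to 1266 CPM. Dendritic cell markers, of interest because Irf4, Mgl2 and Clec10a are also expressed by dendritic cells, summed to 122 to 247 CPM in Ct, 111 to 161 in ECH and 145 to 198 in HF. Their members went both ways, with 2 of 10 higher and 3 lower in HF than in Ct at an unadjusted p under 0.05 (7.35% and 8.72% of all genes). In ECH against Ct, 1 was higher and 2 lower (6.03% and 5.89% of all genes). In both comparisons 0 were called (0.377% and 0.356% of all genes). Markers of resident cardiac Mφ summed to 3877 to 5090 CPM in Ct, 4287 to 6038 in ECH, the highest being mice 3 and 4, and 3585 to 4471 in HF. Of these 5 markers, Timd4, which marks self-renewing resident Mφ, was called lower in ECH than in Ct (166 ± 50.2, 54.0 ± 23.4 and 87.1 ± 15.2 CPM in Ct, ECH and HF, log2 fold change −1.62, edgeR FDR 0.0341), where 0.089% of all genes were called lower. Folr2 was also lower and Cd163 higher in ECH than in Ct at an unadjusted p under 0.05 (5.89% and 6.03% of all genes). The median log2 fold change of the 5 markers was 0.27 in that comparison. Over all mice, T and NK cell markers summed to 26.0 to 99.5, eosinophil, basophil and mast cell markers to 2.51 to 41.1, endothelial markers to 7.81 to 26.8 and cardiomyocyte markers to 29.2 to 117 CPM.

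With a gene called at an FDR under 0.05 and at least a 2-fold change by edgeR's quasi-likelihood test, 0 of the 7 genes were called between ECH and Ct, where 0.356% of the 14608 genes tested were called (0.267% higher and 0.089% lower). Between HF and Ct 0 of the 7 were called (0.377% of all genes, 0.267% higher and 0.11% lower), and between ECH and HF also 0 (0.0% of all genes). At an unadjusted p under 0.05, 4 of the 7 genes differed between ECH and Ct, with Il4ra higher and Retnla, Irf4 and Clec10a lower in ECH, against 11.9% of all genes (6.03% higher and 5.89% lower). Between HF and Ct 4 of the 7 did, with Il4ra and Mgl2 higher and Irf4 and Clec10a lower in HF, against 16.1% of all genes (7.35% higher and 8.72% lower). Between ECH and HF there were 2, Il4ra higher and Mgl2 lower in ECH, against 7.98% of all genes (5.17% higher and 2.81% lower). The median absolute log2 fold change of the 7 genes was 1.05, 0.70 and 0.36 in these comparisons, beside 0.30, 0.34 and 0.26 over all genes. Their median signed log2 fold change was −0.30, 0.043 and −0.21, beside 0.010, −0.015 and 0.018 over all genes, so the genes did not move in a common direction. The ECH and Ct libraries each enter 2 of the comparisons, which are therefore not independent. The 7 genes were chosen with earlier results of these data known, so their counts beside the shares of all genes do not test them as a set. Without Ct library 2 and HF library 1 the numbers at an unadjusted p under 0.05 were 4, 2 and 2. The number for HF against Ct was also 2 without Ct mouse 2, Ct mouse 4 or HF mouse 4, and that for ECH against HF was 1 without ECH mouse 1, ECH mouse 3 or HF mouse 1.

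**Figure D1:**
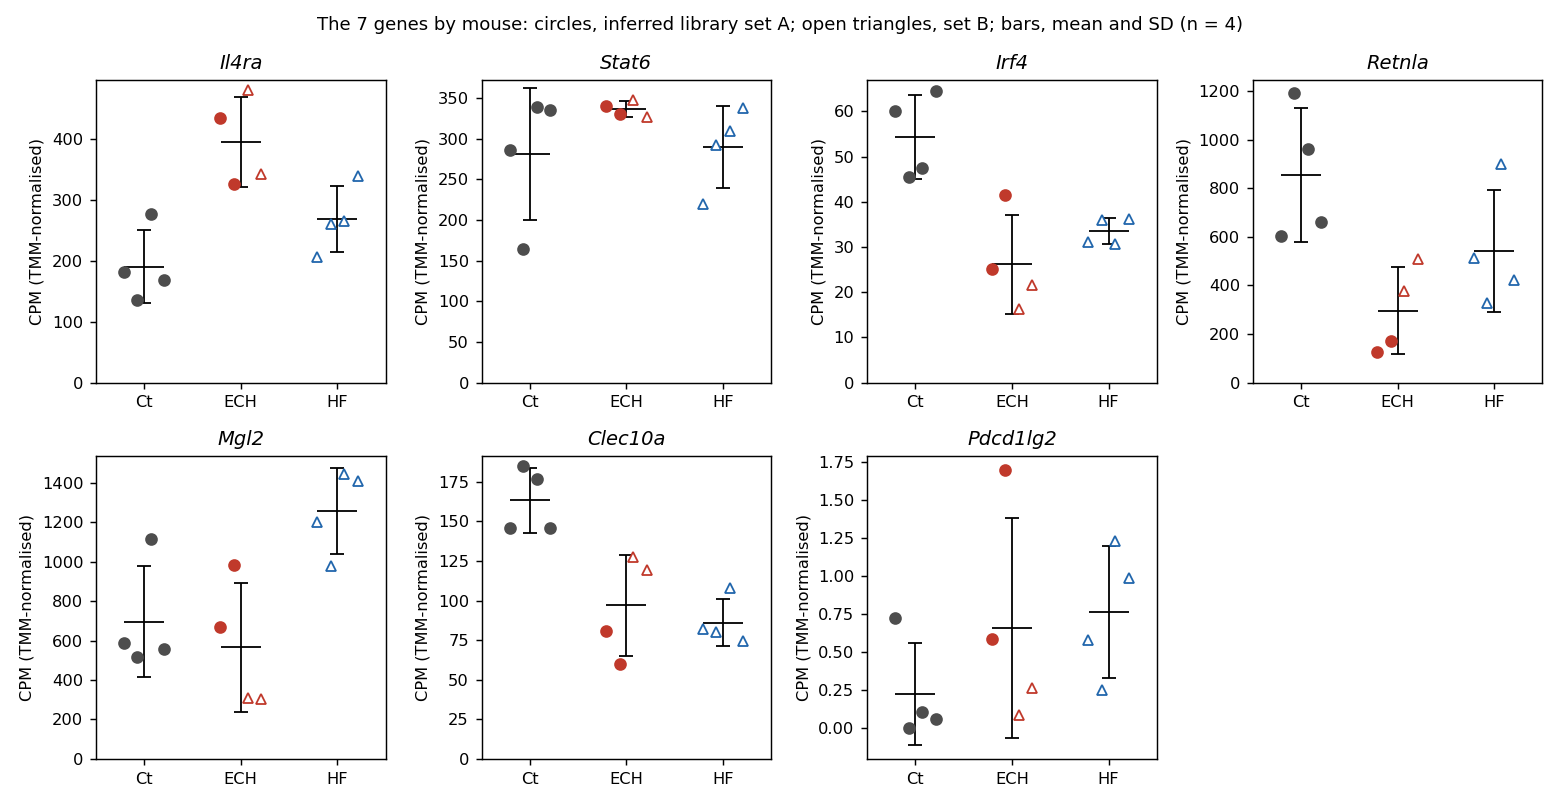
TMM-normalised CPM of the 7 genes in each of the 12 mice, with circles for the inferred library set of Ct and ECH mice 1 and 2, open triangles for that of HF and ECH mice 3 and 4, and bars for the mean and SD (n = 4). Every ECH mouse is above every Ct mouse for Il4ra and below every Ct mouse for Irf4, Retnla and Clec10a, and the ECH mice part by set for Retnla, Mgl2, Clec10a, Irf4 and Pdcd1lg2.

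Per kilobase of exon, which allows levels to be compared between genes, Retnla had the highest mean of the 7 in every group, at 1426 ± 458 CPM per kb (SD, n = 4) in Ct, 493 ± 300 in ECH and 901 ± 419 in HF. Mgl2 came next at 332 ± 135, 270 ± 156 and 601 ± 103 CPM per kb, within the SD of Retnla in ECH and in HF. In ECH mice 1 and 2 Mgl2 was above Retnla, at 320 and 469 against 209 and 285 CPM per kb. Stat6 followed at 63.9 ± 18.5, 76.3 ± 2.24 and 65.8 ± 11.5 CPM per kb. In Ct, Clec10a (56.3 ± 7.12 CPM per kb) lay within the SD of Stat6 and above Il4ra (31.7 ± 10.1). In ECH and HF this order was turned, with Il4ra at 65.9 ± 12.3 and 44.6 ± 9.03 CPM per kb and Clec10a at 33.4 ± 11.0 and 29.7 ± 5.16. Irf4 (5.34 to 11.1 CPM per kb) and Pdcd1lg2 (0.112 to 0.387) were the lowest by their group means.

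Il4ra, on chromosome 7 of GRCm38 from 125552120 to 125579474 on the plus strand, encodes the chain shared by the receptors of IL-4 and IL-13. It was at 182, 135, 276 and 169 CPM in Ct mice 1 to 4, at 435, 325, 479.7 and 342 CPM in ECH and at 206, 260.2, 266 and 338 CPM in HF. All ECH mice were above all Ct mice, while HF overlapped both groups. The means were 190.5 ± 60.6 CPM (SD, n = 4) in Ct, 396 ± 73.9 in ECH and 268 ± 54.2 in HF, which places HF between the other groups. The fitted difference between ECH and Ct was 2.08-fold (log2 fold change 1.05, SE 0.22, edgeR FDR 0.0596), and so did not pass the threshold over all genes. Without Ct mouse 3 it was 1.29 (edgeR FDR 0.0230), and over all alternatives the FDR lay between 0.000391 and 0.777. The values were 0.49 (SE 0.22, edgeR FDR 0.297) for HF against Ct and 0.56 (SE 0.22, edgeR FDR 0.568) for ECH against HF. ECH mice 1 and 2 averaged 380.1 CPM and ECH mice 3 and 4 411 CPM, so the inferred library sets did not part the ECH mice for this gene. An antisense gene, Gm44876, overlaps 571 bases of Il4ra exons, and without strand in the counting the reads of both genes there cannot be told apart. Among all genes whose ranges did not overlap between ECH and Ct (7.97% of those tested, 4.33% with ECH higher and 3.64% with ECH lower), Il4ra was the single one of the 7 that was higher, and 3 were lower.

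The other receptor chains and the ligands were examined from a list of the pathway. Il2rg, the common γ chain that pairs with IL-4Rα in the type I receptor, was at 150.3 ± 8.08 CPM in Ct, 165 ± 34.5 in ECH and 219 ± 9.74 in HF, with all HF mice (207 to 229.7 CPM) above all ECH mice (131 to 199 CPM) and all Ct mice (139.6 to 159 CPM). Its log2 fold change was 0.55 for HF against Ct (SE 0.14, edgeR FDR 0.113) and −0.41 for ECH against HF (SE 0.14, edgeR FDR 0.549). With the set as a covariate these were 1.07 (edgeR FDR 0.0109) and −0.69 (edgeR FDR 0.00935), and ECH mice 3 and 4 alone were at −0.69 against HF (edgeR FDR 0.0114). Il13ra1, the chain that pairs with IL-4Rα in the type II receptor, was at 218 ± 27.0, 241 ± 41.8 and 219 ± 6.46 CPM in Ct, ECH and HF, differences within the spread between mice. Il13ra2, a decoy receptor of IL-13, had no count in 10 of the 12 libraries. Of the ligands themselves, Il4 was at 0 to 1.03 CPM with no count in 4 libraries, and Il13 had no count in any, where 3 counts correspond to 0.0259 to 0.0349 CPM.

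Stat6, on chromosome 10 from 127642986 to 127660957 on the plus strand, encodes the transcription factor that the receptor activates. It was at 287, 164, 339 and 335 CPM in Ct, 339.7, 330.1, 348 and 326 CPM in ECH and 219, 292, 309.7 and 338 CPM in HF. The ECH mice differed little from each other, and the low values were those of Ct mouse 2 and HF mouse 1, the libraries with the missing genes described above. The means of 281 ± 81.4, 336 ± 9.84 and 289.8 ± 50.7 CPM gave log2 fold changes of 0.26 for ECH against Ct (SE 0.20, edgeR FDR 0.666), 0.043 for HF against Ct (SE 0.20, edgeR FDR 0.944) and 0.21 for ECH against HF (SE 0.20, edgeR FDR 0.871). These counts give the transcript level and not the phosphorylation by which STAT6 is activated. The kinases of the receptor were described by the 3 genes of their list with the smallest p. Jak2 was at 69.1 ± 7.65 CPM in Ct, 83.3 ± 16.0 in ECH and 55.7 ± 11.4 in HF, with a log2 fold change of 0.58 for ECH against HF (SE 0.17, edgeR p 0.00484, FDR 0.534). Tyk2 was at 0.32 in that comparison (SE 0.14, edgeR p 0.0321, FDR 0.595) and Jak1 at 0.31 (SE 0.15, edgeR p 0.0631, FDR 0.641). Of the 7 genes of signal transduction, 0 differed from Ct in ECH or in HF at an unadjusted p under 0.05 (11.9% and 16.1% of all genes), and 2 were higher in ECH than in HF (5.17% of all genes), or 1 without both Ct mouse 2 and HF mouse 1.

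Irf4, on chromosome 13 from 30749226 to 30766976 on the plus strand, encodes a factor needed for full alternative activation of Mφ that is also made by B cells, plasma cells and some dendritic cells. It was at 60.0, 45.5, 47.4 and 64.6 CPM in Ct, at 25.1, 41.6, 16.3 and 21.7 CPM in ECH and at 31.2, 36.0, 30.8 and 36.1 CPM in HF. Every Ct mouse was above every ECH and every HF mouse, and ECH mouse 2 was nearest to Ct. The means of 54.4 ± 9.36, 26.2 ± 10.9 and 33.5 ± 2.96 CPM gave log2 fold changes of −1.06 for ECH against Ct (SE 0.24, edgeR FDR 0.0871), −0.70 for HF against Ct (SE 0.24, edgeR FDR 0.204) and −0.36 for ECH against HF (SE 0.24, edgeR FDR 0.768). Without ECH mouse 2 the first of these was −1.37 with an edgeR FDR of 0.0148, and over all alternatives that FDR lay between 0.00284 and 0.941. In a fit that held the inferred set as a covariate, the value for HF against Ct turned to 0.12 (edgeR FDR 0.922). The B and plasma cell marker sum moved with Irf4 between the groups, at 163, 456, 99.2 and 243 CPM in Ct mice 1 to 4 against at most 89.2 CPM elsewhere. Of the 7 markers tested, 5 were lower than in Ct in ECH and in HF at an unadjusted p under 0.05 (5.89% and 8.72% of all genes). In each, 1 of them was called (0.089% and 0.11% of all genes called lower). The plasma cell marker Sdc1 went the other way, at 2.62 ± 2.82 CPM in Ct and 13.8 ± 2.41 in HF (log2 fold change 2.39, edgeR p 0.0328, FDR 0.272). By the methods of the study the sort took CD11b+ cells, a gate that B and plasma cells mostly do not pass. Within Ct the sum was highest in mouse 2, which had the lowest Irf4. In the fit with the set as a covariate, 0 of the 7 markers differed between HF and Ct at an unadjusted p under 0.05 (8.41% of all genes higher and 6.67% lower). In that fit 5 of the 7 were lower in ECH than in Ct (3.66% of all genes), and Irf4 was at −0.71 for ECH against Ct (edgeR p 0.0116, FDR 0.461). Of the dendritic cell markers, Ccr7, which B and T cells also carry, was at 104 ± 49.2 CPM in Ct (48.6 to 164) against 31.0 ± 14.1 in ECH and 36.6 ± 9.08 in HF (17.02 to 47.0 over both), with −1.75 for ECH against Ct (edgeR FDR 0.0707) and −1.51 for HF against Ct (edgeR FDR 0.105), and Siglech, of plasmacytoid dendritic cells, was at 22.4 ± 11.7, 6.32 ± 2.47 and 12.2 ± 4.25 CPM. Flt3, a receptor of dendritic cells and their progenitors, went the other way, at 3.17 ± 2.88 CPM in Ct, 27.1 ± 21.5 in ECH and 11.4 ± 6.23 in HF, and Cd209a was highest in HF. The part of these markers in the differences of Irf4 and of Clec10a was not tested.

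Of 10 listed transcription factors of alternative activation and their cofactors, which include the histone demethylase Kdm6b and the coactivator Ppargc1b, 5 were lower and 0 higher than in Ct at an unadjusted p under 0.05, both in ECH and in HF, where 5.89% and 8.72% of all genes were lower, with a median log2 fold change of −0.68 and −0.59, and 0 were called. Klf4, a factor that cooperates with STAT6, was at 499 ± 382 CPM in Ct, 155 ± 60.9 in ECH and 149 ± 74.7 in HF. Kdm6b, a histone H3K27 demethylase that acts at IL-4 target genes, was at 66.2 ± 47.6, 20.9 ± 6.43 and 21.9 ± 6.24 CPM. Both were highest in Ct mouse 2, at 1069 and 137 CPM, against 270.3 to 368 CPM of Klf4 and 34.3 to 50.1 CPM of Kdm6b in the other Ct mice. The log2 fold changes were −1.69 and −1.66 for ECH against Ct (edgeR FDR 0.168 and 0.101) and −1.74 and −1.59 for HF against Ct (edgeR FDR 0.134 and 0.107). Without Ct mouse 2 they were −0.996 and −1.03 for ECH against Ct and −1.05 and −0.96 for HF against Ct. With the set as a covariate they were −1.54 and −1.37 for ECH against Ct (edgeR p 0.0340 and 0.0188) and −1.43 and −0.92 for HF against Ct (edgeR p 0.119 and 0.195). In that fit 3 of the 10 genes were lower and 0 higher in ECH than in Ct at an unadjusted p under 0.05 (3.66% and 4.24% of all genes). In HF 1 was lower (Ppargc1b) and 3 higher (Batf3, Egr2 and Myc), where 6.67% and 8.41% of all genes were. Without Ct mouse 2, 3 were lower in ECH and 4 in HF (4.19% and 7.71% of all genes), and 0 higher. Among the 7 negative regulators, Socs1, an inhibitor of Janus kinases induced by cytokines, was at 20.4 ± 8.37, 9.97 ± 5.10 and 11.2 ± 2.88 CPM, with an edgeR FDR of 0.324 and 0.311 against Ct. The phosphatase gene Ptpn1 was at 0.51 for ECH against HF (edgeR FDR 0.564), and Cish, another inhibitor of cytokine signalling, at −1.01 in that comparison (edgeR FDR 0.635), or −1.78 for ECH mice 3 and 4 alone (edgeR FDR 0.0188).

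Genes of arginine metabolism, a pathway that differs between classically and alternatively activated Mφ, were described as a list. Of 11 listed, 9 were tested, with 0 differing in ECH from Ct at an unadjusted p under 0.05 (11.9% of all genes), and 2 higher and 0 lower in HF than in Ct (7.35% and 8.72% of all genes). The number higher in HF was 4 with the set as a covariate (8.41% of all genes) and 0 without both Ct mouse 2 and HF mouse 1 (7.66%). Oat and Asl, which act after and before arginine in the same metabolism, were both at 0.42 for HF against Ct (edgeR FDR 0.210 and 0.211). Sms, which encodes spermine synthase, was at 22.9 ± 3.82, 20.6 ± 3.50 and 18.5 ± 2.69 CPM in Ct, ECH and HF, with −0.30 for HF against Ct (edgeR FDR 0.462). Nos2, the nitric oxide synthase that competes for arginine in classically activated Mφ, had no count in 9 libraries and at most 0.415 CPM, in HF mouse 2.

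Retnla, on chromosome 16 from 48842551 to 48844461 on the plus strand, encodes RELMα, a secreted protein that IL-4 induces strongly in mouse Mφ. Its promoter is shown together with that of Pdcd1lg2 because these are the windows of the 7 genes that hold the STAT6 palindrome. The windows span 250 bases before to 50 bases after the gene start in the RefSeq annotation of GRCm38.p6, and 6 of the 7 genes had one, the other being Clec10a. Capitals mark TTCNNNNGAA, a motif that reads the same on both strands.
Retnla, chr16:48842359-48842658, plus strand: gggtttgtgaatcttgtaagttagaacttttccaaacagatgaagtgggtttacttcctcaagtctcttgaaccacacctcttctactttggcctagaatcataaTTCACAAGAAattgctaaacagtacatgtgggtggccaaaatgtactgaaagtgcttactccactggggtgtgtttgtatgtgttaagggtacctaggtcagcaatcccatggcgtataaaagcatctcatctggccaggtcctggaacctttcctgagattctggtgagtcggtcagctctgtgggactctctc
Pdcd1lg2, chr19:29410669-29410968, plus strand: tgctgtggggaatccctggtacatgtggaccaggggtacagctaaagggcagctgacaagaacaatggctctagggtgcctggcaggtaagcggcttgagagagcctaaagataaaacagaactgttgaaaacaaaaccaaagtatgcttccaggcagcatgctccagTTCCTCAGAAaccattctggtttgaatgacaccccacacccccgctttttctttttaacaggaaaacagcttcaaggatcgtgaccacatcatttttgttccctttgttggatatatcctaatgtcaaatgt
The palindrome begins 145 bases before the RefSeq start of Retnla and 82 bases before that of Pdcd1lg2. It was present in 6.95% of 32851 promoter windows of this length and absent from those of Il4ra, Stat6, Irf4 and Mgl2. A match of letters says nothing about binding in these cells.

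Retnla was at 602, 1192, 960.1 and 663 CPM in Ct, at 125, 171, 379 and 508 CPM in ECH and at 511, 328, 899 and 420.0 CPM in HF. Every ECH mouse was below every Ct mouse, and HF overlapped both groups. The means of 854 ± 274, 296 ± 180 and 539 ± 251 CPM gave log2 fold changes of −1.53 for ECH against Ct (SE 0.43, edgeR FDR 0.157), −0.66 for HF against Ct (SE 0.42, edgeR FDR 0.470) and −0.87 for ECH against HF (SE 0.42, edgeR FDR 0.641). The ECH mice were not alike, with a mean of 148 CPM in mice 1 and 2 and 443 CPM in mice 3 and 4. In a fit that held the inferred set as a covariate, the value for ECH against Ct was −2.53 (edgeR FDR 0.0419) and that for HF against Ct −2.25 (edgeR FDR 0.0601), and ECH mice 1 and 2 alone were at −2.54 against Ct (edgeR FDR 0.142). ECH mice 3 and 4 alone were at −0.28 against HF (edgeR FDR 0.771). Over all alternatives, the value for ECH against Ct lay between −2.54 and −1.28 and its FDR between 0.0205 and 0.320.

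**Figure D2:**
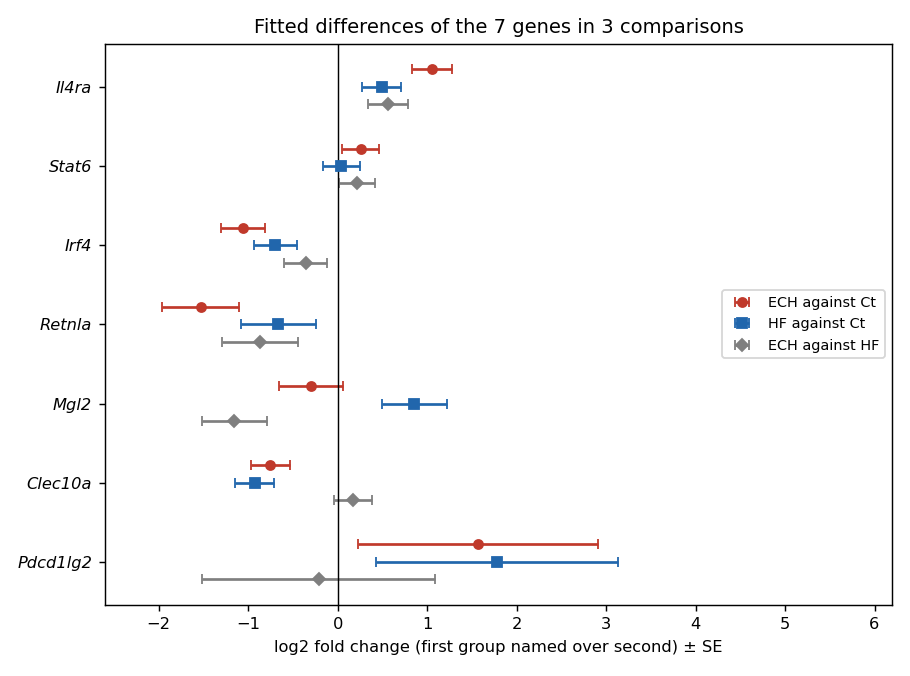
Fitted log2 fold changes of the 7 genes (edgeR, bars ± SE) for ECH against Ct, HF against Ct and ECH against HF. Values right of 0 are higher in the group named first, and the values against Ct have opposite signs for Il4ra than for Irf4, Retnla and Clec10a.

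Mgl2 and Clec10a are neighbouring paralogs on chromosome 11, on the plus strand from 70130329 to 70137550 and from 70156197 to 70170834, that encode C-type lectins for galactose and N-acetylgalactosamine. Their transcripts are alike enough that reads can be placed on the wrong gene. The 300 coding bases that end with the longest run shared by both transcripts, 183 bases, are printed here with capitals for the bases that differ. They were read from the GENCODE M21 transcripts Mgl2-201 and Clec10a-201 and lie in 4 exons of each gene.
Mgl2, chr11:70135962-70136699 with introns removed, plus strand: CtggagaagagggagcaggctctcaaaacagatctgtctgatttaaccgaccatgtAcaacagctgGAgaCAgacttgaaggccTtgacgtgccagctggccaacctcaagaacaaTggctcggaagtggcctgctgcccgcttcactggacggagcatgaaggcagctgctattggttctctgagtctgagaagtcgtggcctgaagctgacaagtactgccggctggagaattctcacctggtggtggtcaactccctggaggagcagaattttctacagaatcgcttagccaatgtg
Clec10a, chr11:70169500-70170189 with introns removed, plus strand: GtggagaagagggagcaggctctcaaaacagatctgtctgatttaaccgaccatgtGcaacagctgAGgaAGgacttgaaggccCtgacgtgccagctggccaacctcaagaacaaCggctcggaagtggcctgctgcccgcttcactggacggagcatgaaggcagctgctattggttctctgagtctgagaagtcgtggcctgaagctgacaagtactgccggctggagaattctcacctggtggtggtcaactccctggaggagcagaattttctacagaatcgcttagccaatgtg
These stretches differ at 8 bases and are 97.3% identical. Over all transcripts, 148 of the 2255 runs of 75 bases of Mgl2 (6.56%) and of the 3331 of Clec10a (4.44%) occur in the other gene, so most of each gene can be told apart by a read of that length, but the values of both are uncertain to the extent that shared reads were counted.

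Mgl2 was at 591, 516, 1115 and 559 CPM in Ct, at 670.5, 982, 307 and 303 CPM in ECH and at 1201, 976, 1443 and 1412 CPM in HF. HF was high throughout, with Ct mouse 3 and ECH mouse 2 in its range, and ECH mice 3 and 4 were the lowest of all mice. The means were 695 ± 282, 566 ± 327 and 1258 ± 216 CPM. The log2 fold change was 0.86 for HF against Ct (SE 0.36, edgeR FDR 0.276), −1.15 for ECH against HF (SE 0.36, edgeR FDR 0.535) and −0.30 for ECH against Ct (SE 0.36, edgeR FDR 0.795). Taken set by set, ECH mice 3 and 4 lay at −2.05 against HF (edgeR FDR 0.00307) and ECH mice 1 and 2 at 0.24 against Ct (edgeR FDR 0.972). With the set as a covariate the values were −2.04 for ECH against HF (edgeR FDR 0.00636), 2.29 for HF against Ct (edgeR FDR 0.0214) and 0.25 for ECH against Ct, the last with its sign turned. Over all alternatives the FDR for ECH against HF lay between 0.00307 and 1 and that for HF against Ct between 0.0214 and 0.442. Of the 10 dendritic cell markers, Cd209a and Flt3 were higher in HF than in Ct at an unadjusted p under 0.05 (7.35% of all genes), and Ccr7, Siglech and Itgae lower (8.72% of all genes). Cd209a was at 84.2 ± 8.92 CPM in HF (75.5 to 95.8) against 45.2 ± 7.37 in Ct (39.0 to 55.2) and 49.0 ± 16.2 in ECH (26.1 to 64.3), with 0.90 for HF against Ct (edgeR FDR 0.107). Flt3 was highest in ECH mice 3 and 4, at 55.8 and 31.4 CPM, the mice with the lowest Mgl2. The part of these markers in the difference of Mgl2 was not tested. HF and Ct lie in different sets, so that a difference between these groups and between the sets cannot be told apart except through the ECH mice.

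Clec10a was at 146, 185, 177 and 146 CPM in Ct, at 80.7, 59.9, 128 and 119 CPM in ECH and at 82.2, 79.9, 108 and 74.2 CPM in HF. Every Ct mouse was above every mouse infused with isoproterenol, and ECH and HF overlapped. The means of 163 ± 20.7, 96.9 ± 32.0 and 86.1 ± 14.95 CPM gave log2 fold changes of −0.75 for ECH against Ct (SE 0.22, edgeR FDR 0.169), −0.92 for HF against Ct (SE 0.22, edgeR FDR 0.0878) and 0.17 for ECH against HF (SE 0.22, edgeR FDR 0.923). With the set as a covariate they were −1.22 (edgeR FDR 0.0346), −1.74 (edgeR FDR 0.0109) and 0.52 (edgeR FDR 0.157). Without ECH mouse 2 the value for HF against Ct was −0.92 with an edgeR FDR of 0.0497. The FDR over all alternatives lay between 0.0324 and 0.319 for ECH against Ct and between 0.00338 and 0.205 for HF against Ct. For Irf4 and Clec10a the ranges of HF and Ct did not overlap, as for 9.04% of all genes tested (4.59% with HF higher and 4.45% with HF lower), and no range of the 7 genes was apart between ECH and HF, as for 6.92% of all genes (3.56% with ECH higher and 3.36% with ECH lower).

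The proportion of the paralogs differed between mice. Per count of Clec10a there were 2.79 to 6.30 counts of Mgl2 in Ct (4.25 ± 1.48), 12.2 to 19.01 in HF (14.8 ± 2.97) and 8.30, 16.4, 2.41 and 2.54 in ECH mice 1 to 4 (7.41 ± 6.58). Every HF mouse had a higher ratio than every Ct mouse, ECH mouse 2 was in the range of HF and ECH mice 3 and 4 were below every Ct mouse. Across the 12 mice, log2 CPM of both genes had a Pearson r of −0.443 (permutation test, two-sided p 0.1484) and a Spearman rho of −0.469 (permutation p 0.1283). Without ECH mice 3 and 4, the farthest from the median of Mgl2, r was −0.500 (permutation p 0.138). Within the inferred sets, each of 6 mice, r was −0.339 (exact permutation p 0.5236) for Ct with ECH mice 1 and 2 and −0.775 (exact permutation p 0.09028) for HF with ECH mice 3 and 4. With group means subtracted, which treats the 4 ECH mice as exchangeable although they parted by set in opposite directions for these genes, r was −0.621 (permutation p 0.03122) and rho −0.622 (permutation p 0.0353). Over the 4 values of r with all mice, with group means subtracted and within each set, the Benjamini-Hochberg adjusted p was at least 0.1249 by permutation.

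**Figure D3:**
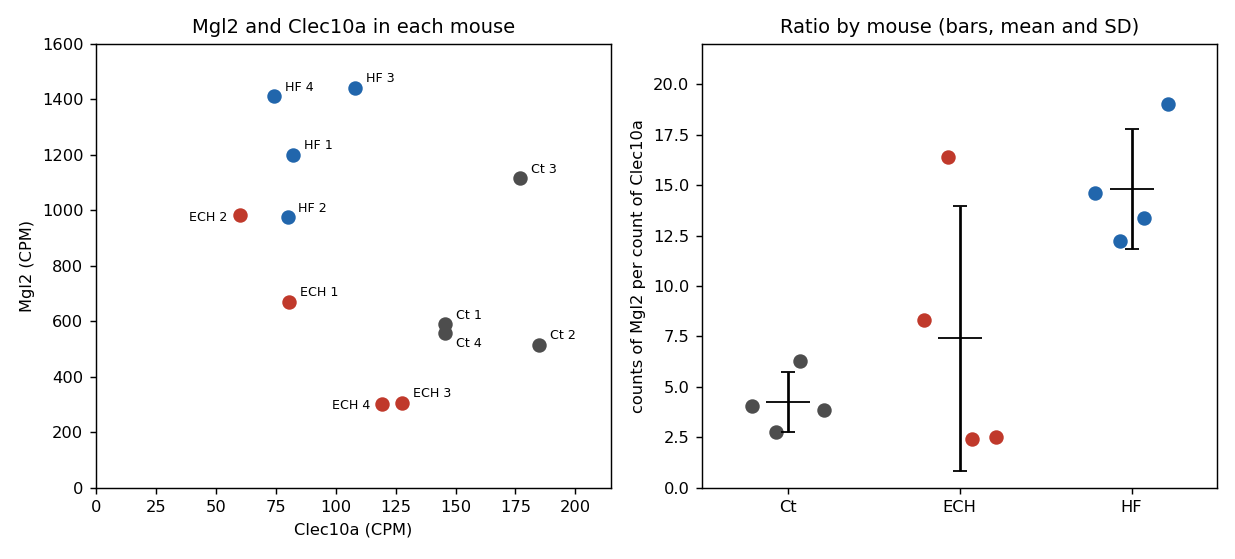
Mgl2 against Clec10a in CPM for each mouse (left) and the counts of Mgl2 per count of Clec10a in each mouse, with the mean and SD of each group (right, n = 4). The HF mice sit at 12.2 to 19.01 counts of Mgl2 per count of Clec10a, above the Ct mice at 2.79 to 6.30, and the ECH mice spread from 2.41 to 16.4.

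Pdcd1lg2, on chromosome 19 from 29410919 to 29471161 on the plus strand, encodes PD-L2 and was barely expressed. It was at 0.720, 0, 0.101 and 0.0580 CPM in Ct, at 0.584, 1.70, 0.0808 and 0.259 CPM in ECH and at 0.574, 0.249, 1.23 and 0.983 CPM in HF, from 0 to 175 counts in a library. The groups overlapped throughout. The means of 0.220 ± 0.336, 0.655 ± 0.725 and 0.759 ± 0.434 CPM gave log2 fold changes of 1.57 for ECH against Ct (SE 1.34, edgeR FDR 0.691), 1.78 for HF against Ct (SE 1.35, edgeR FDR 0.561) and −0.21 for ECH against HF (SE 1.31, edgeR FDR 0.998). Cd274, which encodes the other PD-1 ligand, PD-L1, was at 20.2 ± 8.66, 16.8 ± 4.29 and 15.1 ± 4.80 CPM, with an edgeR FDR of at least 0.563 in the 3 comparisons. Pdcd1, which encodes PD-1, had no count in 5 libraries and was at 2.33, 0.301, 3.36 and 3.45 CPM in the ECH mice, against at most 0.780 CPM in the other groups, and its value for ECH against Ct was 2.96 on the log2 scale (SE 2.03, edgeR FDR 0.617).

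Of 25 genes listed as induced by IL-4, 24 were tested and these went in both directions. At an unadjusted p under 0.05, 4 were higher and 6 lower in ECH than in Ct (6.03% and 5.89% of all genes), 7 higher and 4 lower in HF than in Ct (7.35% and 8.72%), and 0 higher and 2 lower in ECH than in HF (5.17% and 2.81%), the last being 1 and 7 with the set as a covariate (7.73% and 8.51%). The genes called, beside 0.267% of all genes called higher in HF, were Atp6v0d2 and Fn1, both higher in HF than in Ct. Atp6v0d2, a subunit of the vacuolar proton pump, was at 9.41 ± 2.59 CPM in Ct, 23.6 ± 11.3 in ECH and 29.8 ± 4.52 in HF, and rose in HF by 1.67 on the log2 scale (edgeR FDR 0.0394). Fn1, which encodes fibronectin, was at 100.5 ± 34.9, 291 ± 94.7 and 359 ± 192 CPM and rose in HF by 1.84 (edgeR FDR 0.0467). In ECH against Ct these genes were at 1.33 (edgeR FDR 0.0996) and 1.54 (edgeR FDR 0.0950). The call of Atp6v0d2 was lost when any of 9 libraries was left out (each Ct and HF mouse and ECH mouse 2) and that of Fn1 with any of 10 (each mouse but Ct mouse 3 and HF mouse 1), with an edgeR FDR of at most 0.127 and 0.149, although the values of these fits lay between 1.43 and 1.95. Both calls were also lost without Ct mouse 2 and HF mouse 1 together (edgeR FDR 0.0845 and 0.0615), and that of Fn1 when only HF and Ct were fitted (1.84, edgeR FDR 0.0747). They were lost as well with the set as a covariate (1.32, edgeR FDR 0.271, and 1.39, edgeR FDR 0.319) and with the replicate block (1.73, edgeR FDR 0.0663, and 1.75, edgeR FDR 0.0653). Fibroblast markers, of cells that also make fibronectin, summed to 25.7 to 172 CPM in Ct, 73.7 to 395 in ECH and 78.4 to 227 in HF.

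Other effector genes named by the rule had lower or higher means with no call. Ccl24, a chemokine for eosinophils, was at 425 ± 95.1 CPM in Ct, 206 ± 56.9 in ECH and 270.2 ± 61.9 in HF, with −1.04 for ECH against Ct (edgeR FDR 0.0846). Fcer2a, the low-affinity IgE receptor, which B cells also carry, was at 21.5 ± 12.3, 3.84 ± 2.75 and 6.43 ± 1.89 CPM, with −2.48 for ECH against Ct (edgeR FDR 0.0843), and was highest in Ct mouse 2 (37.3 CPM), the mouse with the highest B cell marker sum. Chil3, a chitinase-like protein that monocytes also express, was at 37.6 ± 12.001, 115 ± 58.3 and 69.5 ± 49.3 CPM, with 1.61 for ECH against Ct (edgeR FDR 0.202). Mrc1, the mannose receptor CD206, was abundant in all groups at 1547 ± 124, 1864 ± 229 and 1576 ± 172 CPM, with 0.27 for ECH against Ct (edgeR FDR 0.435).

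**Figure D4:**
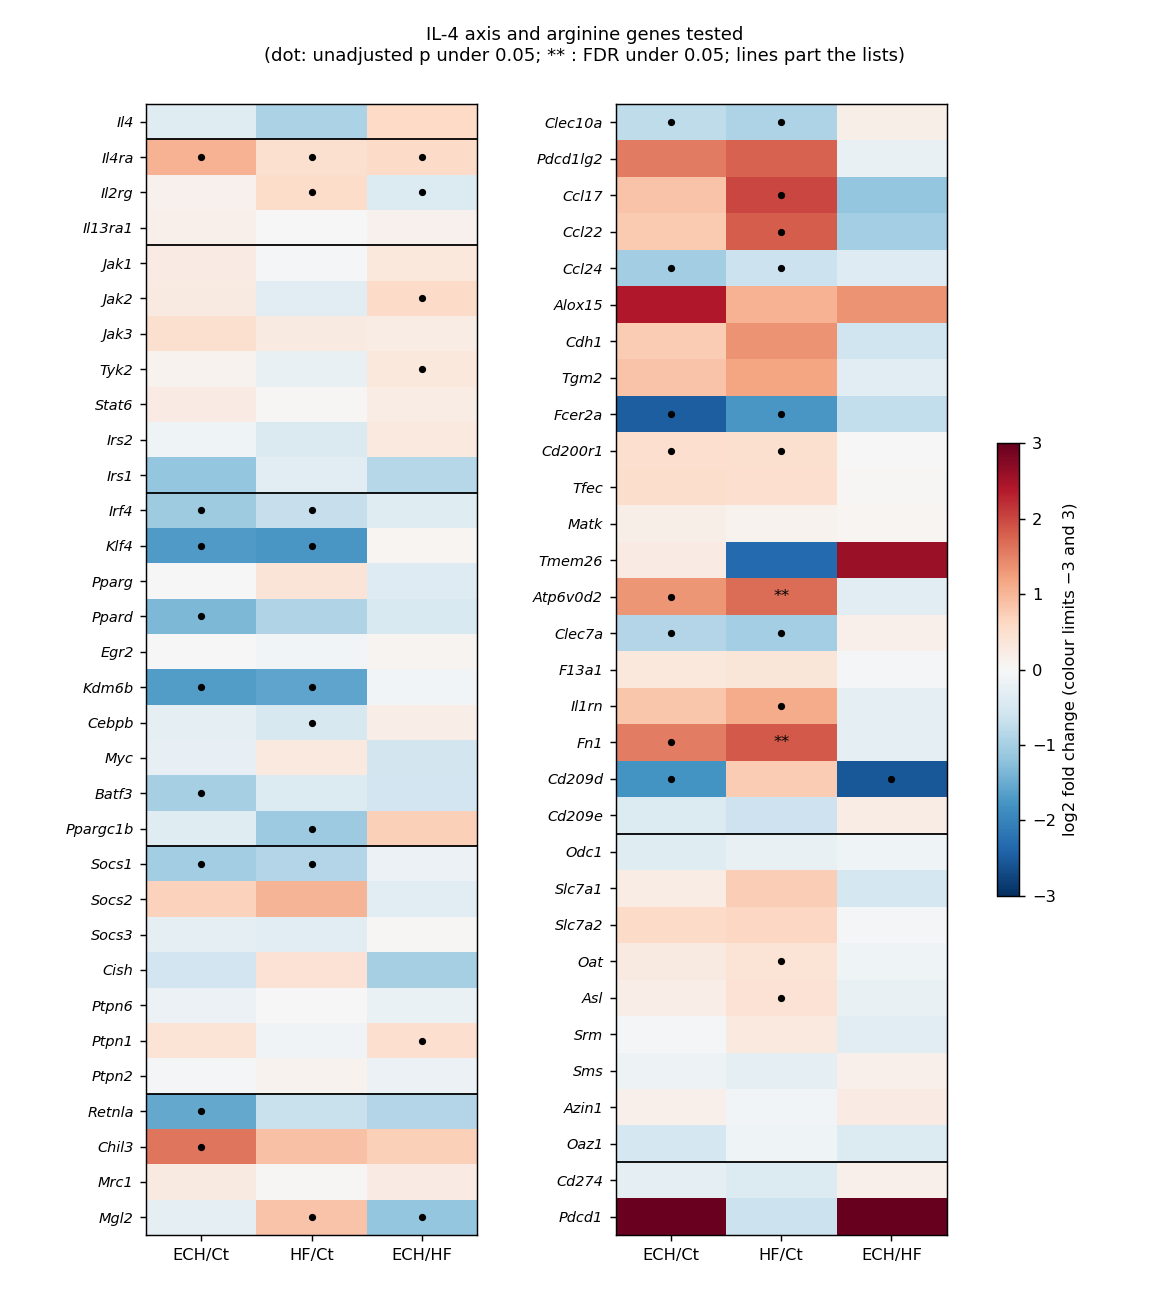
Log2 fold changes of the 63 genes of the IL-4 and arginine lists that were tested, in ECH against Ct, HF against Ct and ECH against HF. Dots mark an unadjusted p under 0.05 and double asterisks an FDR under 0.05 (edgeR), which are found for Atp6v0d2 and Fn1 in HF against Ct.

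The ECH mice parted by inferred library set, with no overlap between mice 1 and 2 and mice 3 and 4, for 5 of the 7 genes, as 54.4% of all genes tested did. Mice 3 and 4 were higher than mice 1 and 2 by 3.002 times for Retnla and 1.76 times for Clec10a, and lower by 2.71 times for Mgl2, 1.76 times for Irf4 and 6.71 times for Pdcd1lg2, the last at few counts. For Il4ra and Stat6 the values of the 2 pairs of mice overlapped. In the same sets, ECH mice 3 and 4 were below HF for Irf4 (−0.82, edgeR FDR 0.0456) and at 0.52 for Clec10a (edgeR FDR 0.109) and 0.62 for Il4ra (edgeR FDR 0.135), and ECH mice 1 and 2 were at 0.99 for Il4ra (edgeR FDR 0.777) and −1.22 for Clec10a (edgeR FDR 0.242) against Ct. What set these mice apart was not tested.

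The genes whose log2 CPM followed each of the 7 most closely over the 12 libraries were found as a description. They were Pde7b (Pearson r 0.931), Ankrd9 (0.921) and Pgd (0.918) for Il4ra, and Arfgap2 (0.987), Slc25a40 (0.980) and Sec24c (0.979) for Stat6. For Irf4 they were Hnrnph3 (0.940), Ptchd1 (0.938) and Klhl13 (0.925), and for Retnla Rras (0.894), Izumo4 (0.847) and 1700030J22Rik (0.827). Mgl2 was followed by Pilra (0.964), Pilrb2 (0.963) and Snrpa (0.961), and Clec10a by Cd40 (0.907), Phf20l1 (0.882) and Rps27 (0.878). Pdcd1lg2 was followed by Kcp (0.879), 2810417H13Rik (0.858) and Dmkn (0.852). None of the 7 genes was among the 3 genes nearest to another of them. The libraries differ in group, in inferred set and in the number of genes detected, all of which enter such correlations.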

How the data were processed

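RNA of sorted cardiac Mφ was measured in 12 libraries, 4 per group, grouped by the condition in their labels. The authors used Trimmomatic, TopHat2, the build mm10 (GRCm38) and featureCounts and deposited raw counts per gene symbol. Neither versions nor annotation nor the strand setting nor the unit counted (single reads or pairs) is given here by any source. SMART-Seq v4 libraries hold no molecular identifiers, and a limit of 3 counts for absent genes covers counting error alone. Genes with 2 counts were more numerous than genes with 1 or with 3 in all libraries, so a count may not stand for an independent fragment and the limit may be too low. The depth was 88466559 to 111180291 counts per library.

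The test was edgeR 4.0.16 in R 4.3.3 (filterByExpr, TMM, quasi-likelihood test, Benjamini-Hochberg over the 14608 genes tested), in a single fit of all libraries with 1 mean per group. The common dispersion was 0.370, a biological coefficient of variation of 60.8%. In simulated data the test recovered 61.5% of genes changed 4-fold between ECH and Ct (14253 genes run) and 25.5% of those changed 2-fold (14221 genes run), at an FDR under 0.05 whatever the fitted fold. Recovery under the rule for calls, which also needs a 2-fold change, was not simulated. The simulated data held no difference between the inferred sets. CPM per kb used the exon union of GENCODE M21. Alternatives were RLE scaling, DESeq2 1.42.0, edgeR's likelihood ratio test, limma-voom (limma 3.58.1) with quality weights, other filters, a block for the replicate number, the inferred library set, fits restricted to the groups in question, and each library left out. The lectin correlation used log2 CPM with 0.1 CPM added and permutation tests in scipy 1.17.1. The 7 genes and all lists were chosen with earlier results of these data known. Genes beyond the 7 were named when called, when among the 3 smallest p of their list, when set as fixed companions (such as Mrc1 and Nos2) or when among the 3 most alike in Pearson r. Il13ra2, the markers Sdc1, Timd4, Folr2, Cd163, Ccr7, Cd209a, Flt3, Siglech and Itgae, the genes Ppargc1b, Batf3, Egr2 and Myc, and those of the closing observations were named outside this rule, after their values were seen. A further gene chosen with these, and some places in the lists, are not reported here.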

Additional observations from a re-analysis of the deposited data

Results flagged for a closer look

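Over the 7 genes and 3 groups, 21 sets of 4 mice were examined with Dixon's test for a mouse far from the others, of which chance would mark about 1 in 20, and 2 were marked. Mgl2 in Ct library 3, at 1115.23 CPM, lay above the other Ct libraries by 0.876 of the range of the group. Pdcd1lg2 in Ct library 1, at 0.71987 CPM, lay above the others by 0.860 of the range. Without this mouse Pdcd1lg2, at few counts, was at 3.59 for ECH against Ct in place of 1.57 (edgeR FDR 0.374) and at 3.80 for HF against Ct in place of 1.78 (edgeR FDR 0.307). Without Ct mouse 3, Mgl2 was at 0.028 for ECH against Ct in place of −0.30 and at 1.18 for HF against Ct (edgeR FDR 0.111).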

How the results depend on the processing

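The 7 genes gave 21 results, recomputed in 473 alternatives, of which 440 left the direction and the side of an FDR of 0.05 as they were, 23 brought a gene under that FDR whatever its fold and 10 changed the sign, and in 0 was a call lost since none had been made. For the other named genes, 1390 of 1489 alternatives over 66 results were unchanged in both, 27 brought a gene under that FDR, 26 lost a call and 46 changed the sign. The cause of a change was not tested. The number of genes called in ECH against Ct was 52, but DESeq2 called 248, edgeR's likelihood ratio test 218, limma-voom 84, a fit of only the groups compared 8, the replicate block 22, the covariate for the inferred set 22 and a fit within a set 1, with 1741 genes at an unadjusted p under 0.05 and between 11 (without Ct mouse 1) and 95 (without Ct mouse 3) with a mouse left out. In HF against Ct it was 55, and 333, 273, 130, 18 with the replicate block, 208 with the covariate, 2347 at an unadjusted p under 0.05, and 15 (without Ct mouse 1) to 103 (without Ct mouse 3). In ECH against HF it was 0, with 1165 genes at an unadjusted p under 0.05, 47 called by DESeq2, 48 by the likelihood ratio test, 272 with the covariate and 370 within a set, and 0 to 0 with a mouse left out. Of the 7 genes in ECH against Ct, an FDR under 0.05 was reached by 3 with DESeq2 (Il4ra 0.000391, Clec10a 0.0324, Irf4 0.00284), 4 with the likelihood ratio test (Il4ra 0.00109, Clec10a 0.0432, Irf4 0.00492, Retnla 0.0205), 2 with limma-voom (Il4ra 0.0160, Irf4 0.0267), 1 with a CPM filter (above 1 in 4 libraries) (Il4ra 0.0458), 2 with the covariate, and 0 to 1 with a mouse left out. In the simulation of a 4-fold change, an FDR under 0.05 was reached by 52 and 34 unchanged genes with DESeq2 and the likelihood ratio test and by 3 with the quasi-likelihood test. In HF against Ct the number was 1 (Clec10a) with DESeq2 (0.00338), the likelihood ratio test (0.00542) and only the groups compared (0.0468), 2 with the covariate and 0 to 1 with a mouse left out, and in ECH against HF 1 with the covariate and 2 within a set. At an unadjusted p under 0.05, 4 to 5, 2 to 4 and 1 to 3 of the 7 genes differed in the 3 comparisons with a mouse left out, 2 in HF against Ct without both Ct mouse 2 and HF mouse 1, and 4 in ECH against HF with the covariate and within a set. Replicate numbers are shared by the groups but do not pair the mice, since deviations from the group means of mice with the same number correlated at −0.076 to 0.083, and the block brought 0 of the 7 genes under an FDR of 0.05 in any comparison.

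Signs changed as follows (log2 fold changes, with ranges over fits that left out 1 mouse). In ECH against Ct, Mgl2 was at 0.25 with the covariate and 0.24 within a set. With mice left out Mgl2 was at −0.70 to 0.028 (above 0 without Ct mouse 3). Il4, at very few counts, was at 0.54, 0.53 and −1.83 to 0.35 in these settings. Cd274 was at −0.43 to 0.052 with mice left out (above 0 without Ct mouse 1). Without both Ct mouse 2 and HF mouse 1 Cd274 was at −0.45. In HF against Ct, Irf4 was at 0.12, Il4 at 2.68, Socs1 at 0.38, Fcer2a at 0.19, Cd274 at 0.17 and Mrc1 at −0.093 with the covariate, and Il4 at 1.29 with the replicate block. With mice left out, Stat6 was as low as −0.14 (without Ct mouse 2; −0.038 without HF mouse 4), Il13ra1 at −0.078 to 0.045, Jak1 as high as 0.048, Ptpn1 at −0.24 to 0.034, Pdcd1 at −7.97 to 0.44 and Mrc1 at −0.018 to 0.10. Il13ra1 was also at −0.045 with limma-voom, −0.0032 with the CPM filter and −0.067 without both Ct mouse 2 and HF mouse 1, a setting that put Stat6 at −0.038. In ECH against HF, Il4 was at −0.95 with limma-voom, −1.45 with the replicate block, −2.14 with the covariate and within a set and −0.89 to 1.003 with mice left out. The covariate and the fit within a set put Il13ra1 at −0.060 and −0.062, Klf4 at −0.11 in both and Cd274 at −0.17 in both, and limma-voom put Kdm6b at 0.081. With mice left out, Pdcd1lg2 was at −1.30 to 0.16, Kdm6b at −0.27 to 0.096, Klf4 at −0.18 to 0.30, Socs1 at −0.47 to 0.092, Fn1 at −0.53 to 0.11 and Cd274 at −0.021 to 0.32, and without both Ct mouse 2 and HF mouse 1 Kdm6b was at 0.093 and Cd274 at −0.024. The fit without both Ct mouse 2 and HF mouse 1 was added once their missing genes had been seen.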

Other observations

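Several further genes of the IL-4 list are named here after their values were seen. Ccl17 and Ccl22, chemokines for CCR4-bearing T cells that dendritic cells also make, were at 6.12 ± 4.52 and 6.07 ± 5.38 CPM (SD, n = 4) in Ct, 11.0 ± 3.99 and 10.53 ± 9.87 in ECH and 24.4 ± 6.18 and 21.4 ± 9.55 in HF, with log2 fold changes of 2.00 (edgeR FDR 0.163) and 1.82 (edgeR FDR 0.231) for HF against Ct. Il1rn, the antagonist of the interleukin-1 receptor, was at 89.5 ± 38.9, 159.7 ± 87.6 and 193 ± 16.2 CPM, with 1.11 for HF against Ct (edgeR FDR 0.213). Clec7a, the β-glucan receptor dectin-1, was at 305 ± 30.7, 166 ± 69.9 and 151 ± 31.3 CPM, with −0.88 for ECH against Ct (edgeR FDR 0.158) and −1.02 for HF against Ct (edgeR FDR 0.0977). Cd200r1, an inhibitory receptor, was at 50.2 ± 6.79, 71.3 ± 12.3 and 70.1 ± 3.79 CPM, with 0.51 and 0.48 against Ct (edgeR FDR 0.166 and 0.152). None of these differences passed the threshold over all genes.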
